A study of Mus musculus with 25 samples.

Results

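Transcripts of 7 lectin-type receptor genes that lie close together on distal mouse chromosome 6 were followed in bulk messenger RNA sequencing libraries of bone marrow neutrophils. The genes are Clec2d, Clec12b, Clec1b, Clec9a, Clec1a, Clec7a and Olr1, in their order along the chromosome, and they are 7 of 35741 gene symbols in the counts table. They were listed by name with results of these data known, and were chosen by their levels in knockout against wild-type neutrophils among other values. Knockout values set against wild type are therefore given as a description with no test, and tests are given only between knockout groups. All 7 genes passed the filter on low counts. Clec9a held at most 9 counts in any knockout library, below the filter's minimum count of 10, and so passed through wild type. Its tests between knockout groups rest on such low counts. Clec1a held at most 9 counts in any wild-type library and so passed through knockout groups. It reached 11 counts in Ripk3-/- replicates 1 and 2 and Mlkl-/- replicate 3, and 10 in Ripk3-/- Ptpn6∆PMN replicate 1. Nothing is read from its comparisons with the groups that hold these libraries.

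The groups were Ripk3-/- (3 libraries), Ripk3-/- Ptpn6∆PMN (3), Mlkl-/- (3), Mlkl-/- Ptpn6∆PMN (2), Ripk3-/- Mlkl-/- (2), Ripk3-/- Mlkl-/- Ptpn6∆PMN (3), Casp8∆PMN Mlkl-/- Ptpn6∆PMN (2), Ripk3-/- Mlkl-/- Casp8∆PMN Ptpn6∆PMN (2), Casp8∆PMN Ptpn6∆PMN (1) and wild type (3). One further library has a title and a genotype label that name different genotypes and was placed in no group. All mice were female, on a C57BL/6J background and labelled with the same age range of 6 to 13 weeks, and the single Casp8∆PMN Ptpn6∆PMN mouse was the only one labelled as inflamed. ∆PMN marks the conditional alleles, for which the labels name no Cre driver, and the Ripk3 and Mlkl alleles are labelled as plain knockouts. Ptpn6 encodes the phosphatase SHP-1, Casp8 the protease caspase-8, Ripk3 a kinase of necroptosis and Mlkl the protein that carries out that form of cell death. The labels do not say whether the wild-type mice were littermates of the knockouts, whether libraries came from separate mice, or which libraries were prepared together, so line, litter and preparation cannot be told apart from genotype in a comparison with wild type, and p-values measure only the spread between these libraries.

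Library totals ran between 21598177 and 23187676 estimated counts. The neutrophil label was checked against 14 neutrophil markers, whose summed level was 61788 to 140467 CPM (counts scaled to library size with TMM) in the 21 knockout libraries and 76575 to 89314 CPM in the 3 wild-type libraries. Ly6g, a surface marker of mouse neutrophils, stood at 314 to 910 CPM in the knockouts and at 392 to 483 CPM in wild type. Ripk3 stood at group levels of 0.0137 to 0.0948 CPM in the groups labelled Ripk3-/-, at 3.35 to 5.46 CPM in the other knockout groups and at 9.54 ± 0.881 CPM in wild type (SD, n = 3). Mlkl stood at 0.604 to 1.40 CPM in the groups labelled Mlkl-/-, against 1.61 to 4.16 CPM in the others, and Casp8 at 18.3 to 20 CPM in the groups with Casp8∆PMN, against 26.8 to 34.7 CPM in the others. Ptpn6 stood at 119 to 294 CPM in the groups with Ptpn6∆PMN, against 547 to 614 CPM in the groups without it, wild type included.

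C-type lectin receptors are membrane proteins with an extracellular domain related to that of carbohydrate-binding lectins, and myeloid cells use them to sense fungi, dead cells and neighbouring cells. Several carry a short tyrosine motif in the cytoplasmic tail that recruits the kinase Syk, which signals through the adaptor Card9. Others carry an inhibitory motif that recruits phosphatases such as SHP-1. Of the activating receptors, Clec7a encodes Dectin-1, the receptor for fungal beta-glucan. Clec1b encodes CLEC-2, the podoplanin receptor best known from platelets. Clec9a encodes DNGR-1, a receptor for actin exposed by dead cells and a marker of cross-presenting dendritic cells. Clec12b is an inhibitory receptor that in human cells binds SHP-1. Clec1a encodes MelLec, a receptor for fungal melanin, Clec2d encodes Clr-b, the ligand of the inhibitory NK cell receptor Klrb1b, and Olr1 encodes LOX-1, a scavenger receptor for oxidised lipoprotein.

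In RefSeq annotation of GRCm38.p6, the build of the authors' processing, the 7 genes span 327 kb of chromosome 6 from 129180615 to 129507350. Clec2d lies at 129180615 to 129186535 on the plus strand, apart from the rest. Clec1b, at 129397297 to 129405413, and Clec9a, at 129408862 to 129424764, follow each other on the plus strand. Clec12b is annotated on the minus strand from 129375513 to 129427634 and its span encloses both of them. Clec1a lies at 129426684 to 129452000, Clec7a at 129461591 to 129472785 and Olr1 at 129479150 to 129507350. In GENCODE M21 of the same build, exons of Clec1b and Clec9a share 184 bp on the same strand, so reads from that stretch cannot be assigned to either gene from the summed counts. No other pair of the 7 shares exon sequence there. Clec12b ends at 129385874 in GENCODE M21, so in that annotation its span overlaps neither Clec1b nor Clec9a.

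The 250 bases before the transcript start are shown for the 3 genes that were low in every knockout library and for Clec7a, the most abundant of the set, as RefSeq gives them on GRCm38.p6, 5′ to 3′ on the strand of the gene. They are chr6:129385504-129385753 (minus strand) for Clec12b, chr6:129397047-129397296 (plus) for Clec1b, chr6:129408612-129408861 (plus) for Clec9a and chr6:129472780-129473029 (minus) for Clec7a, and the Clec12b start lies inside its annotated span. Capitals mark matches to the motifs searched.
Clec12b: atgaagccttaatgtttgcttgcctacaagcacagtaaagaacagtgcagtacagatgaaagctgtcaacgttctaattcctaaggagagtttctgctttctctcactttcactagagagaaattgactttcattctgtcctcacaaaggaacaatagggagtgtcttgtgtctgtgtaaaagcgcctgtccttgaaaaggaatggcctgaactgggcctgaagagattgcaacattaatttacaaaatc
Clec1b: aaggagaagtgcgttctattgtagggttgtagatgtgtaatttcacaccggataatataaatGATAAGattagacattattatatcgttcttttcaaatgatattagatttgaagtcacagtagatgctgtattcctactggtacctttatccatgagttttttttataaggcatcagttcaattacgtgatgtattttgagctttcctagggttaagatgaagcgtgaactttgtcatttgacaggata
Clec9a: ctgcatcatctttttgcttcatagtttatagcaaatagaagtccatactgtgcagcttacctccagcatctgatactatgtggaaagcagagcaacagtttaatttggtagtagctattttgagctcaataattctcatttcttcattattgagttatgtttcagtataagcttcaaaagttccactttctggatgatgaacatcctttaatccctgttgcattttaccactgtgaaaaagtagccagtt
Clec7a: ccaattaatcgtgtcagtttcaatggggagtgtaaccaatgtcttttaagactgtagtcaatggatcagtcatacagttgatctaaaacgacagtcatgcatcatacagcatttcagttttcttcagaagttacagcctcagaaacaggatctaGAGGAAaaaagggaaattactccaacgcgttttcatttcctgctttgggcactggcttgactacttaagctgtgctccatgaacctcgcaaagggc
Both strands were searched for GATAAG (recognised by factors of the GATA family), GAGGAA (recognised by PU.1), TTGCNNAA (recognised by the C/EBP family) and the core of the interferon-stimulated response element, which were present in 6.6%, 23.1%, 9.6% and 3.0% of 27025 RefSeq promoters of the same length. Clec1b held 1 GATAAG, 188 to 183 bases before the start, and Clec7a held 1 GAGGAA, 96 to 91 bases before it. Clec12b and Clec9a held none of these letters in this window. Of the other genes in the table, Clec2d held 1 match to the interferon element, 189 to 180 bases before the start, and Olr1 held 1 GATAAG and 1 match to the PU.1 motif on the other strand, and none of the matches overlapped. Clec1a had no entry.

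Clec12b, Clec1b and Clec9a, the 3 genes that sit next to each other, were lower in every one of the 21 knockout libraries than in any wild-type library, and so in all 9 knockout genotypes. These were 3 of the 7 genes, where 0.494% of all 16206 genes tested lay below wild type in this way. None of the 7 lay wholly above wild type, where 1.09% of all genes did. The comparison chose the genes and nothing is read from these shares. In bulk libraries, fewer cells of a type and less RNA per cell cannot be told apart.

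Clec1b ranged between 0.246 and 1.33 CPM in the knockout libraries, with a median of 0.499, against 5.79, 5.18 and 5.77 CPM in the 3 wild-type libraries. These values rest on 5 to 28 estimated counts per knockout library and on 124 to 152 per wild-type library. By group, the libraries had 0.371, 0.592 and 0.513 CPM in Ripk3-/-, 0.499, 0.246 and 0.286 in Ripk3-/- Ptpn6∆PMN, 0.583, 0.465 and 1.33 in Mlkl-/-, and 0.641 and 0.418 in Mlkl-/- Ptpn6∆PMN. The highest knockout library of all, in Mlkl-/-, was still well below the lowest wild-type one. Ripk3-/- Mlkl-/- had 0.326 and 0.892 CPM, Ripk3-/- Mlkl-/- Ptpn6∆PMN 0.310, 0.246 and 0.489, Casp8∆PMN Mlkl-/- Ptpn6∆PMN 0.802 and 0.966, Ripk3-/- Mlkl-/- Casp8∆PMN Ptpn6∆PMN 0.682 and 0.287, and the Casp8∆PMN Ptpn6∆PMN library 0.773. On average over the 8 replicated knockout groups, Clec1b was 3.39 below wild type on the log2 scale (log2 difference -3.39, SE 0.24), and group by group the difference lay between -4.03 and -2.66.

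Clec9a had 0.0428 to 0.419 CPM in the knockout libraries, with a median of 0.182, against 2.86, 1.84 and 2.35 CPM in wild type. The counts behind this were 1 to 9 in each knockout library and 44 to 75 in each wild-type library, so a single knockout library fixes the level only loosely. In Ripk3-/- the values were 0.206, 0.338 and 0.0428 CPM, in Ripk3-/- Ptpn6∆PMN 0.307, 0.0985 and 0.123, in Mlkl-/- 0.375, 0.186 and 0.237, and in Mlkl-/- Ptpn6∆PMN 0.214 and 0.0522. Most but not all knockout groups overlapped one another, and with so few counts nothing is read from those that did not. In Ripk3-/- Mlkl-/- they were 0.419 and 0.127 CPM, in Ripk3-/- Mlkl-/- Ptpn6∆PMN 0.155, 0.164 and 0.293, in Casp8∆PMN Mlkl-/- Ptpn6∆PMN 0.150 and 0.145, in Ripk3-/- Mlkl-/- Casp8∆PMN Ptpn6∆PMN 0.182 and 0.0957, and in the Casp8∆PMN Ptpn6∆PMN library 0.309. The mean log2 difference of the 8 groups from wild type was -3.64 (SE 0.30), with single groups between -4.12 and -3.12.

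Clec12b, the inhibitory receptor of the set, had 0.0409 to 0.892 CPM in the knockout libraries, with a median of 0.239, against 1.45, 1.42 and 1.59 CPM in wild type. Counts were 1 to 21 per knockout library and 34 to 40 per wild-type library. Its spread among the knockouts was the widest of the 7 genes on the scale of the coefficient of variation, 78.5%, beside 77.3% for Clec1a and 14.9% for Clec2d. The 3 Ripk3-/- libraries were among the lowest, at 0.0825, 0.0845 and 0.128 CPM, while Mlkl-/- had 0.708, 0.512 and 0.284 and Ripk3-/- Mlkl-/- had 0.419 and 0.892. With Ptpn6 deleted as well, Ripk3-/- Ptpn6∆PMN had 0.307, 0.0985 and 0.0409 CPM, Mlkl-/- Ptpn6∆PMN 0.0534 and 0.313, and Ripk3-/- Mlkl-/- Ptpn6∆PMN 0.232, 0.410 and 0.587. The groups with Casp8 deleted lay within this range, at 0.200 and 0.145 CPM in Casp8∆PMN Mlkl-/- Ptpn6∆PMN, 0.455 and 0.239 in Ripk3-/- Mlkl-/- Casp8∆PMN Ptpn6∆PMN and 0.0515 in the Casp8∆PMN Ptpn6∆PMN library. Against wild type the mean log2 difference was -2.49 (SE 0.32), and it was smallest in Ripk3-/- Mlkl-/- at -1.18 (SE 0.53) and furthest from 0 in Ripk3-/- at -3.86 (SE 0.59).

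**Figure D1:**
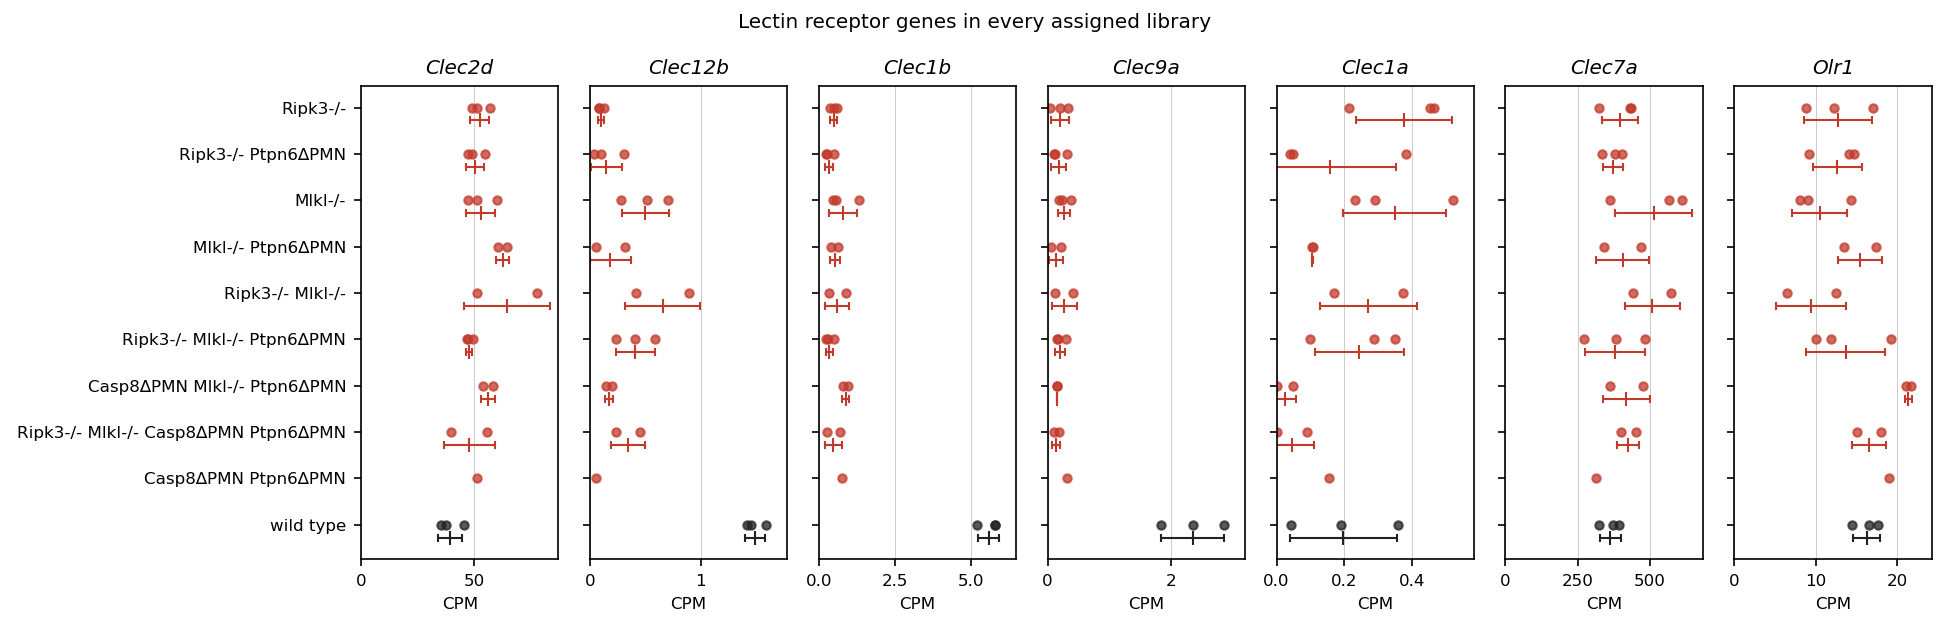
Level of each receptor gene in CPM (x axes, linear and starting at 0, 1 scale per gene) in every assigned library, by genotype (rows, knockouts above and wild type at the bottom). Points are libraries, and the tick and bar under them are the mean and SD where a group has more than 1 library, with bars cut at 0. Clec12b, Clec1b and Clec9a have all 21 knockout libraries below wild type, while Clec7a, Clec1a and Olr1 overlap it. Clec2d overlaps it in 1 knockout library.

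The other 4 genes did not share that pattern. Clec2d was higher in most knockouts, at 39.9 to 78.0 CPM with a median of 51.4, against 35.3, 37.8 and 45.5 CPM in wild type. Of the 21 knockout libraries 20 lay above the wild-type range and 1, of Ripk3-/- Mlkl-/- Casp8∆PMN Ptpn6∆PMN, lay inside it. The mean log2 difference was 0.43 (SE 0.12), and single groups lay between 0.25 and 0.69. The gene is deeply counted, with 878 to 1677 counts per knockout library and 905 to 1144 per wild-type library.

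Clec7a, the Dectin-1 gene, had 273 to 610 CPM in the knockout libraries, with a median of 403, against 323, 371 and 393 CPM in wild type. Of the knockout libraries 12 lay above the wild-type range, 2 below it and 7 inside it, so the groups overlapped. The highest were in Mlkl-/-, with 360, 567 and 610 CPM, and in Ripk3-/- Mlkl-/-, with 574 and 440. The mean log2 difference from wild type was 0.21 (SE 0.16). Olr1 had 6.41 to 21.7 CPM, with a median of 14.1, against 17.7, 16.6 and 14.5 CPM in wild type, and 12 knockout libraries lay below the wild-type range and 5 above it. Its 2 highest libraries were the Casp8∆PMN Mlkl-/- Ptpn6∆PMN pair at 21.7 and 21.1 CPM, and its lowest was 1 of Ripk3-/- Mlkl-/-. Its mean log2 difference was -0.27 (SE 0.22).

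Clec1a was close to the limit of detection in all groups, with 0 to 11 counts in knockout libraries and 1 to 9 in wild-type libraries. This corresponded to 0 to 0.521 CPM, with a median of 0.170, against 0.190, 0.0418 and 0.358 CPM in wild type. The 2 libraries at 0, of Casp8∆PMN Mlkl-/- Ptpn6∆PMN and of Ripk3-/- Mlkl-/- Casp8∆PMN Ptpn6∆PMN, allow up to 0.150 and 0.143 CPM (3 counts of the library, counting error only), which overlaps wild type. No fold is given for it. Its fitted mean log2 difference of -0.44 (SE 0.60) changed sign, to 0.26, without wild type replicate 3.

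Over the 7 genes the median of the mean log2 differences was -0.44, beside -0.05 over all 16206 genes tested. This median is the value of Clec1a, the gene close to the limit of detection. Ranked from the lowest of all genes, Clec9a stood at place 16, Clec1b at 23 and Clec12b at 69. In all, 94 genes had a mean log2 difference of -2 or lower. The genes were chosen by such values among others, so nothing is read from the median or the ranks. Per kilobase of exon, which allows levels of different genes to be compared, the order of median levels in the knockouts was Clec7a (153 CPM per kb), Clec2d (42.4), Olr1 (3.94), Clec12b (0.148), Clec1b (0.0977), Clec9a (0.0552) and Clec1a (0.0328). In wild type it was Clec7a (140 CPM per kb), Clec2d (31.2), Olr1 (4.64), Clec1b (1.13), Clec12b (0.894), Clec9a (0.713) and Clec1a (0.0368). The library ranges of the neighbours Clec7a, Clec2d, Olr1 and the lower genes did not overlap, whereas those of Clec12b, Clec1b, Clec9a and Clec1a overlapped in the knockouts. In wild type Clec1b lay at 1.02 to 1.13, Clec12b at 0.878 to 0.984 and Clec9a at 0.559 to 0.867 CPM per kb, which did not overlap. The length was that of all GENCODE M21 exons of a gene joined, 5103 bp for Clec1b and 1619 bp for Clec12b. The order of these genes depends on it. Without it the median was 0.499 CPM for Clec1b and 0.239 for Clec12b in the knockouts, and 2.35 for Clec9a and 1.45 for Clec12b in wild type. The Dectin-1 gene had the highest level per length in knockouts and wild type.

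**Figure D2:**
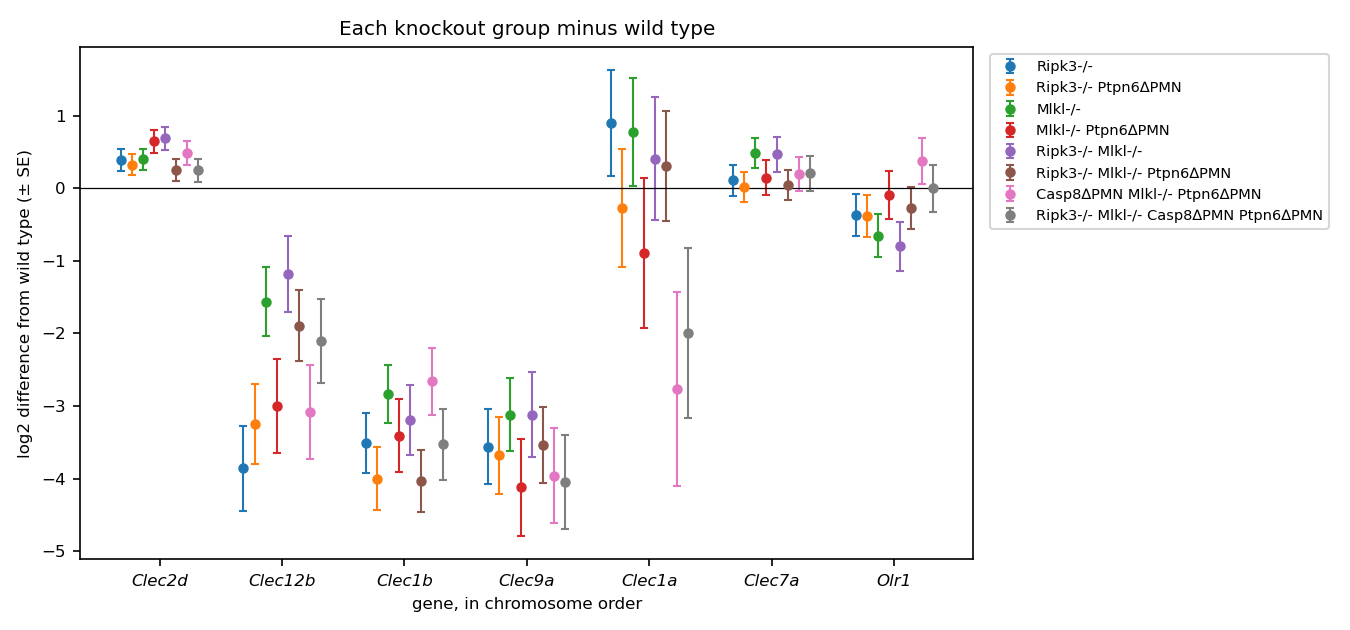
Log2 difference of each of the 8 replicated knockout groups from wild type (y axis, with SE from the edgeR fit as bars) for the 7 genes in chromosome order (x axis), 1 colour per group. Clec12b, Clec1b and Clec9a lie between -4.12 and -1.18 in all 8 groups, and Clec2d between 0.25 and 0.69. All differences share the same 3 wild-type libraries.

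The lower level did not run through the whole chromosome stretch. From 500 kb before the first of the 7 genes to 500 kb after the last, 43 annotated genes were in the table and 32 passed the filter, 25 of them outside the set. Clec12a, an inhibitory receptor gene directly beside Clec12b, had 174 to 436 CPM in the knockouts and 246 to 287 CPM in wild type (mean log2 difference 0.07). Cd69, an early activation antigen, lay at 0.09, Gabarapl1, an autophagy gene, at 0.29, and the non-coding genes 2310001H17Rik, Gm38906 and BC064078 at 0.04, 0.34 and -0.08. Nearby genes of the Klr and Clec2 families and BC035044 lay lower, at -1.17 for Klrb1c, -1.06 for Klrb1f, -0.94 for Clec2i, -0.85 for BC035044, -0.52 for Klrd1, -0.48 for Klre1 and -0.47 for Klrk1.

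Outside the set, 4 genes of the window had every knockout library below wild type, namely Klrb1b (-4.41), Klrc2 (-3.01), Klrc1 (-2.32) and Klri2 (-7.19), and 2 had every one above, namely Klrc3 (1.68) and Klra17. Of these, Klrb1b, Klrc2 and Klri2 were named after their values were seen. Klri2, a killer cell lectin-like receptor, had at most 0.205 CPM in any knockout library and 3.09 to 5.10 CPM in wild type. Klra17, of the Ly49 family, had 100 to 169 CPM in the knockouts and 27.5 to 40.6 CPM in wild type, so neighbours moved in opposite directions. Klra5, of the same family, lay at 0.88. Klr and Klra genes have close paralogs, so reads may be shared between them and these values are uncertain. Over the genome, 19 of the 89 genes at -2 or lower with a RefSeq position lay on chromosome 6, or 21.3%. Of all genes tested with a position, 5.15% lie on that chromosome. The 19 include Clec12b, Clec1b, Clec9a, Klrb1b, Klrc2, Klrc1 and Klri2 of this window. The receptor genes of the set were chosen by such values among others, so nothing is read from this share.

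**Figure D3:**
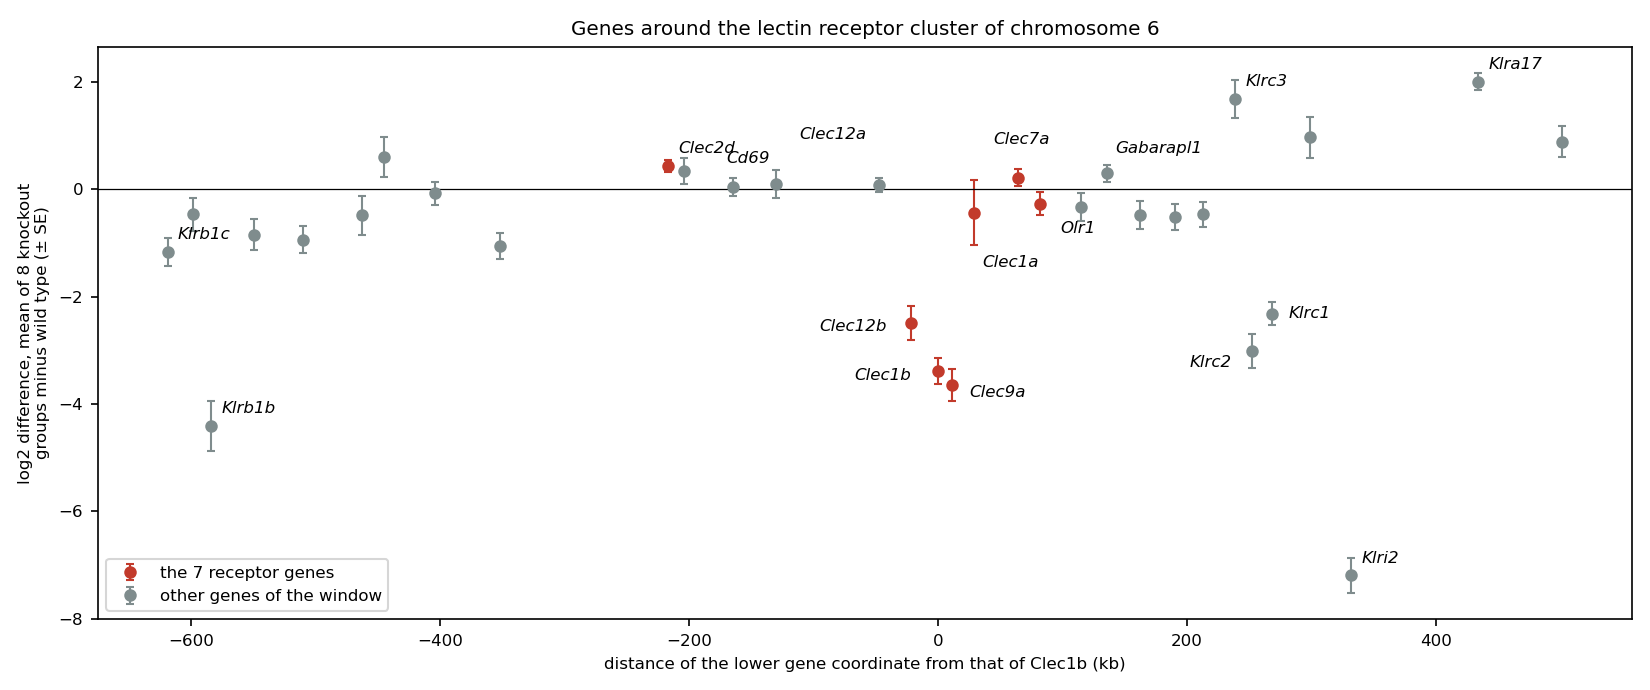
Mean log2 difference of the 8 knockout groups from wild type (y axis, with SE as bars) against the distance of each gene's lower coordinate from that of Clec1b in kb (x axis), for the 32 genes of the window that passed the filter. The 7 receptor genes are in red and the other 25 in grey. Clec12b, Clec1b and Clec9a lie together at -2.49 to -3.64 between neighbours near 0, and Klrb1b, Klrc2, Klrc1 and Klri2 are the other genes below -2.

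Clec1b and Clec9a are best known from other cells, so markers of those cells were set beside them. The 12 platelet and megakaryocyte markers summed to 84.1 to 148 CPM in the knockouts and 117 to 135 CPM in wild type. Of the 11 tested, 6 had a mean log2 difference below 0 and 5 above 0 (median -0.18). Itga2b lay lowest, at -0.60 (SE 0.17), and Pf4 highest, at 0.77 (SE 0.99). Among the defining platelet genes, Pf4 stood at 0 to 1.45 CPM in the knockouts and 0 to 0.398 CPM in wild type. Ppbp stood at 0 to 2.82 CPM in the knockouts and 0.0836 to 0.557 CPM in wild type. The 12 dendritic cell markers summed to 264 to 375 CPM in the knockouts and 294 to 337 CPM in wild type, and 7 of the 10 tested were below 0 (median -0.25). Xcr1 stood at 0.164 to 0.483 CPM against 0.228 to 0.279 CPM and Batf3 at 0 to 0.299 CPM against 0.0398 to 0.114 CPM. Neither passed the filter on low counts. Of the 10 tested, Cadm1 (-0.87), Siglech (-0.70) and Itgae (-0.48) lay furthest below 0, and 3 genes lay above 0. None of the 11 platelet markers tested and none of the 10 dendritic markers tested had every knockout library below wild type, and in no list was a gene at 0 in all libraries. The summed ranges of both lists in the knockouts enclosed those in wild type. Most of the platelet sum came from Itgb3, at 52.1 to 109 CPM in the knockouts and 72.9 to 95.7 CPM in wild type. Most of the dendritic sum came from Wdfy4, at 193 to 279 CPM and 220 to 264 CPM. The sums thus mainly follow these genes. The highest knockout values of Pf4 and Ppbp lay above the highest knockout value of Clec1b, 1.33 CPM. Their knockout medians, 0.155 and 0.093 CPM, lay below its median of 0.499 CPM. In wild type both lay below the 5.18 to 5.79 CPM of Clec1b. The part of platelets and dendritic cells in the receptor values was not tested.

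In some other marker lists most genes had a mean log2 difference below 0. T and NK cell markers summed to 65.0 to 211 CPM in the knockouts and 116 to 185 CPM in wild type, with 12 of 13 markers below 0 (median log2 difference -0.54). Eosinophil markers summed to 39.0 to 133 CPM in the knockouts and 88.7 to 106 CPM in wild type, with 8 of 9 below 0 (median -0.70), and for basophil and mast cell markers 8 of 9 were below 0 (median -0.76) although their sum was 1022 to 2373 CPM in the knockouts and 1276 to 1363 CPM in wild type. B cell markers had 10 of 12 below 0 (median -0.43), and endothelial markers 5 of 7 (median -0.65). Erythroid markers had 11 of 14 below 0 (median -0.20) and monocyte markers 3 of 8 (median 0.07), and macrophage markers 5 of 12 (median 0.08). The part of these cells in the receptor values was not tested.

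**Figure D4:**
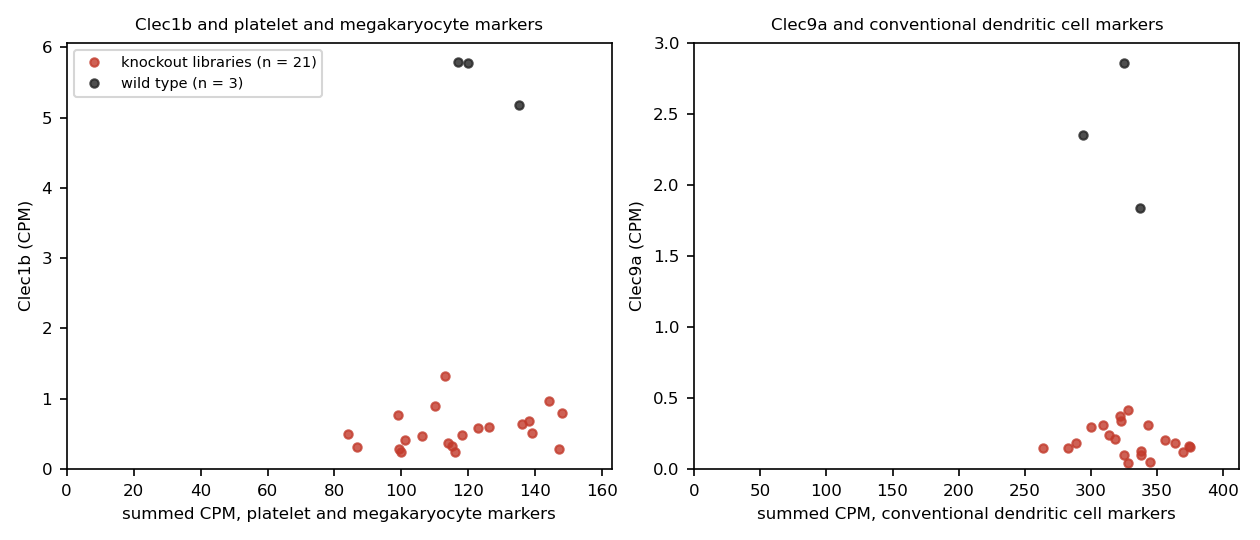
Clec1b against the summed platelet and megakaryocyte markers (left) and Clec9a against the summed conventional dendritic cell markers (right), all in CPM on linear axes starting at 0. Each point is 1 library, red for the 21 knockouts and black for the 3 wild types. The wild-type libraries hold 5.18 to 5.79 CPM of Clec1b and 1.84 to 2.86 CPM of Clec9a, the knockout libraries at most 1.33 and 0.419. Most of the platelet sum comes from Itgb3 and most of the dendritic sum from Wdfy4.

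Between knockout groups, no call was made for any of the 7 genes. The threshold for a call was 0.05 for the p-value of edgeR's quasi-likelihood test after Benjamini-Hochberg adjustment over all 16206 genes. Deleting Ptpn6 called 0 of 7 in Ripk3-/- (0.0185% of all genes), 0 of 7 in Mlkl-/- (1.51%), 0 of 7 in Ripk3-/- Mlkl-/- (0.00617%) and 0 of 7 averaged over these 3 backgrounds (1.55%). Deleting Casp8 on top of Ptpn6 called 0 of 7 in Mlkl-/- and 0 of 7 in Ripk3-/- Mlkl-/-, where 0% of all genes were called in either. For Ripk3-/- against Mlkl-/- it was 0 of 7 (0.00617%), for Ripk3-/- Mlkl-/- against Ripk3-/- 0 of 7 (0%) and for Ripk3-/- Mlkl-/- against Mlkl-/- 0 of 7 (0.00617%). An F test for any difference among the 8 groups called 0 of 7 as well (0.117%). So few genes were called in most of these comparisons that a count of 0 in 7 is near the background in each.

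Beside the counts of 0 calls stand the counts at an unadjusted p under 0.05, where 5% of the genes tested is 810. Casp8 deletion had 1515 genes in Mlkl-/- Ptpn6∆PMN and 750 in Ripk3-/- Mlkl-/- Ptpn6∆PMN, where DESeq2 called 90 and 1. Ripk3-/- Mlkl-/- against Ripk3-/- had 597, where DESeq2 called 1. Of the 7 receptor genes, the unadjusted p was under 0.05 for none in either Casp8 comparison and for 1, Clec12b, in the last.

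Clec12b differed most among the knockouts. It was lower in Ripk3-/- (0.0825, 0.0845 and 0.128 CPM) than in Mlkl-/- (0.708, 0.512 and 0.284 CPM), with no overlap, by a log2 change of -2.30 (SE 0.64, 95% interval -3.67 to -0.93), and 15.7% of all genes did not overlap in that comparison. The edgeR adjusted p was 0.702 (unadjusted 0.00198). It was higher in Ripk3-/- Mlkl-/- (0.419 and 0.892 CPM) than in Ripk3-/-, again with no overlap, by 2.68 (SE 0.67, 95% interval 1.24 to 4.11, edgeR adjusted p = 0.974, unadjusted 0.000785), where 24.9% of all genes did not overlap. These comparisons share the Ripk3-/- libraries, which held few counts of the gene. The library with conflicting labels, whose title names Ripk3 and Mlkl, was left out and held 0.176 CPM of Clec12b. Ripk3-/- Mlkl-/- and Mlkl-/- differed by 0.38 (SE 0.56, 95% interval -0.81 to 1.57).

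For the F test across 8 groups, Clec12b had an edgeR adjusted p of 0.158 (unadjusted 0.00697). DESeq2's likelihood-ratio test gave 0.0161, and edgeR gave 0.0427 without Ripk3-/- Ptpn6∆PMN replicate 1 and 0.049 without Ripk3-/- Mlkl-/- Ptpn6∆PMN replicate 3. The call thus depends on the tool and on single libraries. Over all genes these settings called 1629, 583 and 2675, against 19 in the main fit. Without Ripk3-/- Mlkl-/- Ptpn6∆PMN replicate 3 the unadjusted edgeR p of Clec12b was 0.00793, higher than in the main fit. The adjusted p of the other genes in that F test was 0.281 for Clec1a, 0.288 for Olr1, 0.337 for Clec1b, 0.357 for Clec2d, 0.517 for Clec7a and 0.871 for Clec9a in edgeR.

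Ptpn6 deletion, averaged over the 3 backgrounds, left the differences of the 7 genes between -0.98 and 0.36, with a median of -0.51, where the median of all genes was 0.00. Clec1b had a log2 change of -0.63 (SE 0.29, 95% interval -1.25 to -0.01, edgeR adjusted p = 0.297), which was -0.33 without Ripk3-/- Mlkl-/- replicate 3, and Clec7a one of -0.29 (SE 0.13, 95% interval -0.57 to 0.00, edgeR adjusted p = 0.302). Clec12b, whose product can bind the deleted phosphatase in human cells, had -0.51 (SE 0.40, 95% interval -1.37 to 0.35, edgeR adjusted p = 0.598). In the Ripk3-/- background alone, where 9.19% of all genes did not overlap between the groups, all 7 genes overlapped. The intervals of the average for Clec9a (-1.38 to 0.36), Clec1a (-2.06 to 0.09), Clec2d (-0.28 to 0.11) and Olr1 (-0.04 to 0.75) took in 0. For Clec2d a 2-fold change in either direction lies outside the interval, while for Clec9a and Clec1a a 2-fold lower level lies inside it.

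Clec2d stood at 47.2, 47.0 and 49.5 CPM in Ripk3-/- Mlkl-/- Ptpn6∆PMN, against 78.0 and 51.2 CPM in Ripk3-/- Mlkl-/-. The groups did not overlap (13.4% of all genes did not), and the log2 change was -0.44 (SE 0.16, 95% interval -0.79 to -0.09, edgeR adjusted p = 0.846). It rested on 1 library, with -0.10 without Ripk3-/- Mlkl-/- replicate 2 and -0.71 without replicate 3. In the Mlkl-/- background it went the other way, with 64.8 and 60.7 CPM in Mlkl-/- Ptpn6∆PMN and 47.4, 60 and 51.3 CPM in Mlkl-/- (log2 change 0.24, SE 0.16, edgeR adjusted p = 0.467), and 35.8% of all genes did not overlap there. Clec1a was the only other gene of the set that did not overlap between these Mlkl-/- groups, with 0.107 and 0.104 CPM in Mlkl-/- Ptpn6∆PMN against 0.292, 0.233 and 0.521 CPM in Mlkl-/-. The highest of these Mlkl-/- libraries helped Clec1a through the filter on low counts, so nothing is read from this. A test of the difference between the 3 backgrounds, added after the data were seen, gave Clec2d an edgeR adjusted p of 0.758 (unadjusted 0.0276). The other 6 genes had adjusted p-values of 0.794 to 0.973 in that test, which called 0 of the 7 and 0% of all genes, with 1053 genes at an unadjusted p under 0.05.

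With Casp8 deleted in the Mlkl-/- Ptpn6∆PMN background, 4 of the 7 genes did not overlap, as was so for 41.1% of all genes. Clec1b had 0.802 and 0.966 CPM in Casp8∆PMN Mlkl-/- Ptpn6∆PMN and 0.641 and 0.418 CPM in Mlkl-/- Ptpn6∆PMN (log2 change 0.74, SE 0.55), and Olr1 had 21.7 and 21.1 CPM against 17.4 and 13.5 CPM (0.48, SE 0.36). Clec2d lay slightly lower, at 54.1 and 58.3 CPM against 64.8 and 60.7 CPM (-0.15, SE 0.18), and Clec1a held at most 1 count in either Casp8∆PMN library. In the Ripk3-/- Mlkl-/- Ptpn6∆PMN background 1 of the 7, Clec1a, did not overlap, beside 14.7% of all genes. The log2 change of Clec1a there was -2.30 (SE 1.15, 95% interval -4.76 to 0.17). Adjusted p-values of the 7 genes ran from 0.725 to 0.992 in the first and from 0.864 to 1 in the other background (edgeR).

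**Figure D5:**
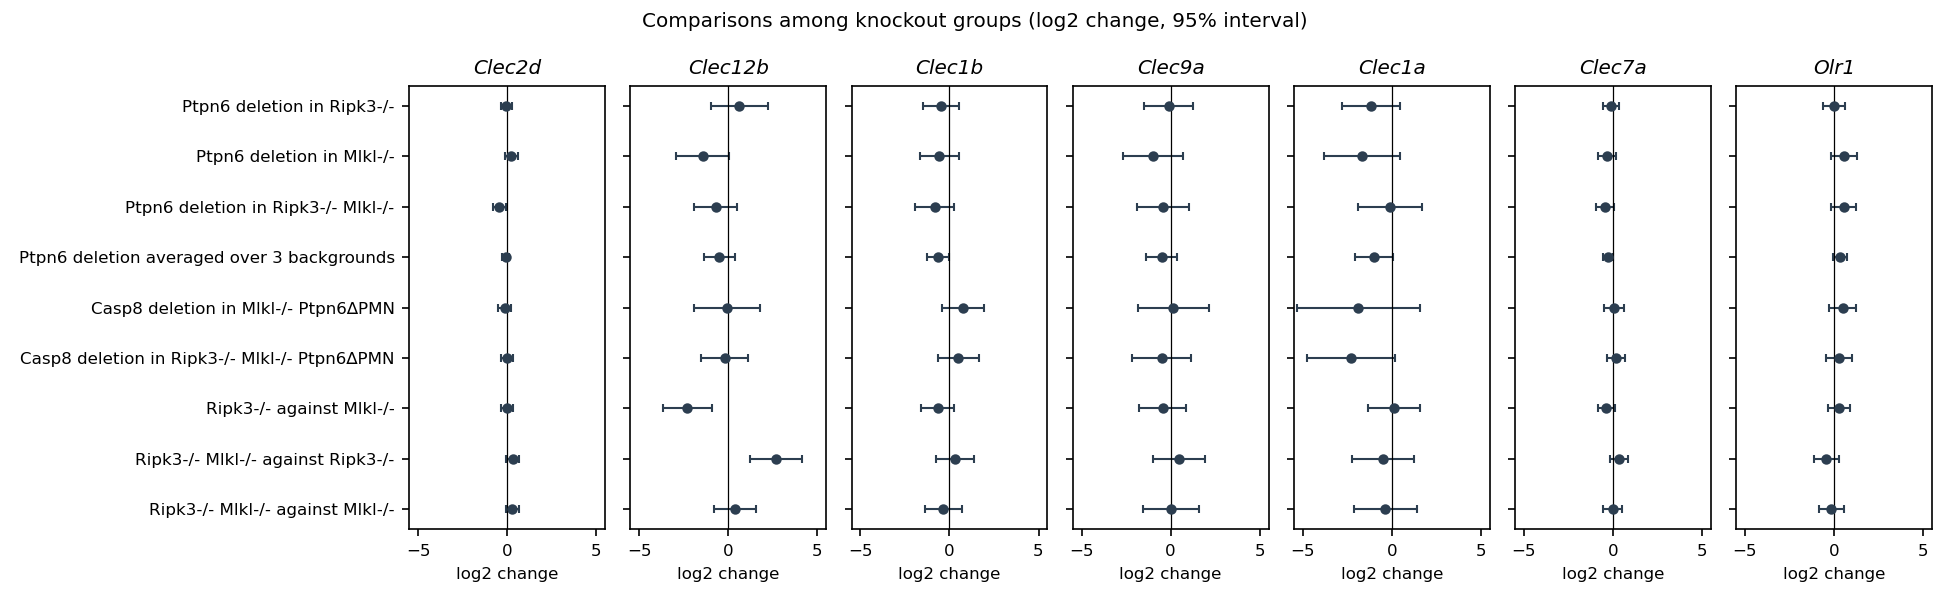
Log2 change of each gene (x axes, with 95% intervals as bars) in the 9 comparisons between knockout groups (rows, the group named first minus the other, or with minus without the deletion). No gene was called in any of them. Clec12b in Ripk3-/- Mlkl-/- against Ripk3-/- (2.68) lies furthest from 0. Clec12b in Ripk3-/- against Mlkl-/- follows at -2.30, as does Clec1a with Casp8 deletion in Ripk3-/- Mlkl-/- Ptpn6∆PMN (-2.30).

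Genes that work with these receptors were described as lists. Of 20 genes of Syk and Card9 signalling, 17 had a positive mean log2 difference from wild type and 3 a negative one (median 0.20), and 3 had every knockout library above wild type, as had 1.09% of all genes. Syk had 845 to 1186 CPM in the knockouts and 811 to 914 CPM in wild type (0.26, SE 0.08), Card9 96.9 to 172 CPM and 114 to 126 CPM (0.22, SE 0.10), and Lyn, a Src family kinase, 533 to 847 CPM and 456 to 528 CPM (0.40, SE 0.11). The downstream kinase and adaptors of Dectin-1 were thus abundant in knockout and wild-type cells alike. Between knockout groups 1 of the 20 was called, Tec, a kinase of the Btk family, which fell by 0.47 with Ptpn6 deletion averaged over 3 backgrounds (log2 change -0.47, SE 0.07, edgeR adjusted p = 0.00593), a comparison that called 1.55% of all genes.

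Among 22 other C-type lectin receptor genes tested, 11 had a positive and 11 a negative mean log2 difference from wild type (median 0.03). Clec4e, the Mincle gene, had 237 to 659 CPM in the knockouts and 184 to 227 CPM in wild type (0.79, SE 0.19), and Clec4d, its partner, 337 to 679 CPM and 259 to 356 CPM (0.71, SE 0.18). Clec5a, which pairs with an activating adaptor, lay at -0.03 (SE 0.16). None of them was called between knockout groups. Klrb1b, the receptor that Clec2d binds, had 0 to 0.550 CPM in the knockouts and 1.13 to 2.47 CPM in wild type, while Pdpn, the podoplanin ligand of Clec1b, had 1.03 to 3.84 CPM and 2.70 to 3.70 CPM. Of the 11 genes in that list of ligands and scavenger receptors (median 0.05), Stab1, a scavenger receptor, was called lower with Ptpn6 deletion, by a log2 change of -1.45 (edgeR adjusted p = 0.0465) in Mlkl-/-, where 1.51% of all genes were called, and of -0.87 (edgeR adjusted p = 0.0269) averaged over 3 backgrounds, where 1.55% were. Of the marker lists, Cd163, a macrophage receptor, was called lower in that average (-1.17, SE 0.29, edgeR adjusted p = 0.0453).

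Genes whose pattern over the 24 assigned libraries was most like that of each receptor were named by Pearson's r of log2(CPM + 0.5), among genes with a mean of at least 1 CPM, as a description over libraries that share groups and depth. For Clec1b these were Stk11ip (r = 0.846), Cracr2a (0.805) and Apold1 (0.784), the last 2 also on chromosome 6, and within the 21 knockout libraries r was -0.11, 0.06 and 0.39. The likeness thus lay mainly between knockouts and wild type. For Clec2d they were Psmb8 (0.815), Ppp2ca (0.808) and Irgm2 (0.800), for Clec7a Senp2 (0.901), Tmem38a (0.895) and Sft2d2 (0.885), and for Olr1 Zmpste24 (0.939), Tmem216 (0.929) and Mlst8 (0.923). Within the knockouts these 9 kept r between 0.697 and 0.956. Clec1b and Clec9a had r = 0.91 with each other over 24 libraries and 0.17 within the 21 knockouts, and Clec12b had 0.76 and 0.78 with them over 24 libraries and 0.11 and 0.20 within the knockouts.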

How the data were processed

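Neutrophils were taken from the 68% and 78% Percoll interface and sequenced as paired 100 base reads, per the labels' protocols. The authors deposited estimated counts (expected counts) per gene symbol for 25 libraries, and the submitters' processing notes name Salmon 0.14.1, DESeq2 and the build GRCm38.p6. The step between transcripts and genes, and any use of strand, is not given in the sources used here. Of the values, 75.1% were whole numbers and the rest were rounded. Groups came from the genotype labels. The 23 libraries of the 9 replicated groups were fitted together with edgeR 4.0.16 (R 4.3.3; TMM, filterByExpr with minimum count 10 and minimum total 15, quasi-likelihood F test, 14 residual degrees of freedom, 16206 genes), at a Benjamini-Hochberg adjusted p under 0.05. The script was tested on simulated data. DESeq2 1.42.0 was an alternative. CPM used TMM effective library sizes over all 25 libraries. Of the genes tested, 92.6% matched a RefSeq position of the same build. The genes, lists and tests were chosen with earlier results of these data known. The named genes are the 7 receptors, the 4 targeted genes, genes within 500 kb with a mean of at least 1 CPM, called list members, and the 3 genes most like each receptor. Klrb1b, Klrc2, Klri2 and the list members Ly6g, Pf4, Ppbp, Xcr1, Batf3, Syk, Card9, Lyn, Clec4e, Clec4d, Clec5a and Pdpn fall outside this rule. So do the list members Itga2b, Itgb3, Wdfy4, Cadm1, Siglech and Itgae. All of these were chosen after their values were seen. Libraries with the same replicate number did not deviate together from their group means (not all correlations over 0.1 in either comparison with 3 shared numbers), so none were paired. Protein sequences were not used here.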

Additional observations from a re-analysis of the deposited data

Results flagged for a closer look

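Values in libraries outside the tested comparisons that lay above the highest wild-type library are listed here. In the library with conflicting labels, Clec2d stood at 60.3 CPM and Clec7a at 456 CPM, above wild-type maxima of 45.5 and 393 CPM. In the single Casp8∆PMN Ptpn6∆PMN library, the only one labelled inflamed, Clec2d stood at 51.4 CPM and Olr1 at 19.0 CPM, above wild-type maxima of 45.5 and 17.7 CPM. Each rests on 1 library and has no replicate check. Of the 21 assigned knockout libraries, 20 lay above the wild-type range for Clec2d, 12 for Clec7a and 5 for Olr1. Such values are thus not particular to these libraries.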

How the results depend on the processing

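The log2 differences of Clec1b, Clec9a, Clec12b and Clec2d from wild type, averaged over 8 knockout groups, kept their sign under all 27 alternatives, between -3.51 and -3.33, -3.80 and -3.46, -2.70 and -2.40, and 0.37 and 0.54. Of 694 alternatives for the 63 member changes between knockout groups, 0 were called. The exception is the test among 8 groups, in which DESeq2 (0.0161) and 2 fits that left out a library called Clec12b. These settings called 1629, 583 and 2675 genes in all, against 19 in the main fit. DESeq2 gave no adjusted p for Clec1a in the test among 8 groups. A missing adjusted p was counted as not called, as in DESeq2's test of Ptpn6 deletion in Mlkl-/- for Clec12b, Clec9a and Clec1a. Low counts of Clec12b, Clec1b, Clec9a and Clec1a limit what single libraries show.

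Counts over all genes moved more, and the cause was not tested. DESeq2 called 38 genes for Ptpn6 deletion in Ripk3-/- (edgeR 3), 765 in Mlkl-/- (edgeR 244), 4 in Ripk3-/- Mlkl-/- (edgeR 1) and 669 averaged (edgeR 251). It called 90 and 1 for Casp8 deletion in Mlkl-/- Ptpn6∆PMN and Ripk3-/- Mlkl-/- Ptpn6∆PMN (edgeR 0 each), 2 for Ripk3-/- against Mlkl-/- (edgeR 1), 1 and 3 for Ripk3-/- Mlkl-/- against Ripk3-/- (edgeR 0) and Mlkl-/- (edgeR 1), and 1629 among 8 groups (edgeR 19). With no filter the counts were 20 for Ptpn6 deletion in Ripk3-/-, 3 in Ripk3-/- Mlkl-/-, 383 averaged, 1 for Casp8 deletion in Mlkl-/- Ptpn6∆PMN, 2 for Ripk3-/- Mlkl-/- against Mlkl-/- and 332 among 8 groups. With only the libraries compared they were 1 for Ptpn6 deletion in Ripk3-/-, 532 in Mlkl-/-, 22 averaged, 4 for Casp8 deletion in Mlkl-/- Ptpn6∆PMN, 2 for Ripk3-/- Mlkl-/- against Mlkl-/- and 6 among 8 groups. The replicate block gave 51 among 8 groups; the numbers do not pair the libraries, and no member was called with the block. Leaving out 1 library gave 3 to 156 for Ptpn6 deletion in Ripk3-/-, 2 to 191 in Mlkl-/-, 1 to 18 in Ripk3-/- Mlkl-/- and 7 to 1037 averaged, 0 to 1 for either Casp8 deletion, 0 to 13 and 1 to 17 for Ripk3-/- Mlkl-/- against Ripk3-/- and Mlkl-/-, and 5 to 2675 among 8 groups.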

Other observations

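The library that the labels put in no group held 0.836 CPM of Clec1b, 0.264 CPM of Clec9a, 0.176 CPM of Clec12b, 0.220 CPM of Clec1a and 8.53 CPM of Olr1. For Clec1b, Clec9a and Clec12b these values lie within the range of the 21 knockout libraries and below all 3 wild-type libraries. Its Ripk3 level was 0.0880 CPM, its Mlkl level 0.748 CPM and its Ptpn6 level 583 CPM. The Ripk3-/- Mlkl-/- libraries had 0.0465 and 0.0425 CPM of Ripk3 and 631 and 551 CPM of Ptpn6. The Mlkl-/- Ptpn6∆PMN libraries had 2.88 and 4.59 CPM of Ripk3 and 180 and 197 CPM of Ptpn6. By these 2 genes the library was thus like Ripk3-/- Mlkl-/- and unlike Mlkl-/- Ptpn6∆PMN.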
